A study of Mus musculus with 8 samples.

Results

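The genes described here are 10 mouse genes that handle iron and heme, out of 18635 genes with a value in the RNA-seq table: *Hmox1*, *Slc48a1*, *Slc40a1*, *Tfrc*, *Slc11a2*, *Slc11a1*, *Fth1*, *Ftl1*, *Ncoa4* and *Ireb2*. They were chosen by symbol for what their products do, and all 10 were found and passed the filter on low values. The cells were bone marrow-derived macrophages (BMDMs), grown from marrow in medium conditioned by L929 fibroblasts and then kept for 24 h in tumor-conditioned medium (TCM) of AE17, a murine mesothelioma line, which makes them tumor-educated macrophages (TEMs). The RNA libraries came from *Phgdh* fl/fl TEMs, the controls, with 4 samples, and from *Phgdh* fl/fl *Cx3cr1*-Cre TEMs, also with 4 samples and written Cre TEMs from here on. Both genotypes carry the floxed *Phgdh* allele, both are littermates on C57BL/6, and both received the same TCM. They differ in the Cre recombinase, which stands in the *Cx3cr1* locus, so that loss of *Phgdh* and of 1 intact copy of *Cx3cr1* cannot be told apart. The comparison asks how the loss of PHGDH, the first enzyme of serine synthesis, changes the transcripts of TEMs. BMDMs without TCM were not analysed here.

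Macrophages take in iron on transferrin through the transferrin receptor, and they also take in heme when they engulf aged red blood cells. Heme oxygenase opens the heme ring and releases its iron, which the cell stores inside the shell of ferritin, passes to its own enzymes, or sends out through ferroportin, the iron exporter of the cell. Macrophages of spleen and liver are known for this recycling, and tumor macrophages are known to hold and release iron as well.

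Much of this handling is set on the mRNA. Iron-regulatory proteins bind a hairpin called the iron-responsive element (IRE) when iron is low. In a 5′ UTR the bound protein blocks translation, and in a 3′ UTR it protects the mRNA from decay. The UTRs of the annotated transcripts (GENCODE M21, build GRCm38) were searched for the loop CAGTGN on a stem of 5 base pairs with an unpaired C below it on the 5′ side. The pattern was present in 4 of the 10 genes, against 159 of 21901 protein-coding genes (0.726%). The 10 genes were chosen for iron and heme handling, and the pattern is that of a known element of iron handling. The higher share thus followed from the choice and is no result of these data. Copies of the pattern are shown because their place differs. The ferritin and ferroportin mRNAs have the hairpin before the coding sequence, and the *Tfrc* mRNA has 4 matches after it. The capitals mark the 6 bases of the loop, and each sequence is read 5′ to 3′ on the strand of the gene.
Fth1, 5′ UTR, chr19:9982733-9982759, plus strand: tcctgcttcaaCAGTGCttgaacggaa
Ftl1, 5′ UTR, chr7:45459780-45459806, minus strand: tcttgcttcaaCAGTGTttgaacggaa
Slc40a1, 5′ UTR, chr1:45925466-45925492, minus strand: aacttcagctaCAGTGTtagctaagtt
Tfrc, 3′ UTR, chr16:32631220-32631246, plus strand: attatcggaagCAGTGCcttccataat
Tfrc, 3′ UTR, chr16:32631599-32631625, plus strand: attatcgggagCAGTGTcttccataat
Tfrc, 3′ UTR, chr16:32631664-32631690, plus strand: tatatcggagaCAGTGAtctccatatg
Tfrc, 3′ UTR, chr16:32631711-32631737, plus strand: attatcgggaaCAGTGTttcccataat

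*Slc11a2* had no such match. When 1 unpaired base was allowed on the 3′ side of the stem, a choice made after the first search was seen, a hairpin was found in the 3′ UTR of 1 of its annotated transcripts. That looser pattern was held by 436 of the 21901 genes (1.991%) and by 5 of the 10.
Slc11a2, 3′ UTR, chr15:100395153-100395180, minus strand: gccatcagagcCAGTGTgtttctatggt

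A match to these letters is a description of the sequence. Translation and protein were not measured here, so that an effect of the hairpins of *Fth1*, *Ftl1* and *Slc40a1* on protein could not be seen. Across the 115 tested genes with the stricter pattern, 31 were higher in Cre TEMs, 19 were lower, and the median log2 fold change was 0.007. Of the 23 with it in the 5′ UTR, 5 were higher and 5 lower, and of the 92 with it in the 3′ UTR, 26 and 14. With the looser pattern in the 3′ UTR, 76 of 250 tested genes were higher and 35 lower. Of all tested genes, 20.8% were higher and 20.3% lower. Whether genes with a 3′ UTR match differ from these shares was not tested.

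The values are normalized counts, meaning the reads counted on a gene divided by the size factor of the sample. Samples held 38219563 to 47027420 reads on genes, and each of the 10 genes had at least 1203 reads in each sample. The genotypes were compared with limma on the scale log2(normalized count + 1) for 13629 genes whose mean was at least 10, and a gene was called at an adjusted p under 0.05. The targeted gene *Phgdh* had 119, 129, 117 and 105 normalized counts in *Phgdh* fl/fl TEMs and 32.6, 35.3, 14.2 and 26.3 in Cre TEMs, so that its reads fell without being lost. *Cx3cr1*, which carries the Cre, fell from 1075 ± 94.2 to 660 ± 32.2 (SD, n = 4 each). None of the 10 genes lies on chromosome 3 with *Phgdh*, and *Ireb2* shares chromosome 9 with *Cx3cr1* at a distance of 65.0 Mb.

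Of the 10 genes, 4 were higher in Cre TEMs (*Slc40a1*, *Ncoa4*, *Slc11a2* and *Ireb2*) and 3 were lower (*Tfrc*, *Hmox1* and *Slc11a1*), whereas *Fth1*, *Ftl1* and *Slc48a1* were not called. The genotypes differ widely in these libraries: 41.0% of all tested genes were called, 20.8% higher and 20.3% lower. Among the 6283 tested genes with a mean of at least 1000 normalized counts, which include all 10 of these, 56.9% were called. The share of 7 in 10 is therefore read against a background that is high at this level of expression. The median log2 fold change of the 10 genes was 0.04, against -0.002 over all tested genes. In 7 of them no sample of either genotype lay within the range of the other, as was the case for 36.7% of tested genes. That share covers genes of all levels and was not taken for those with a mean of at least 1000.

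**Figure D1:**
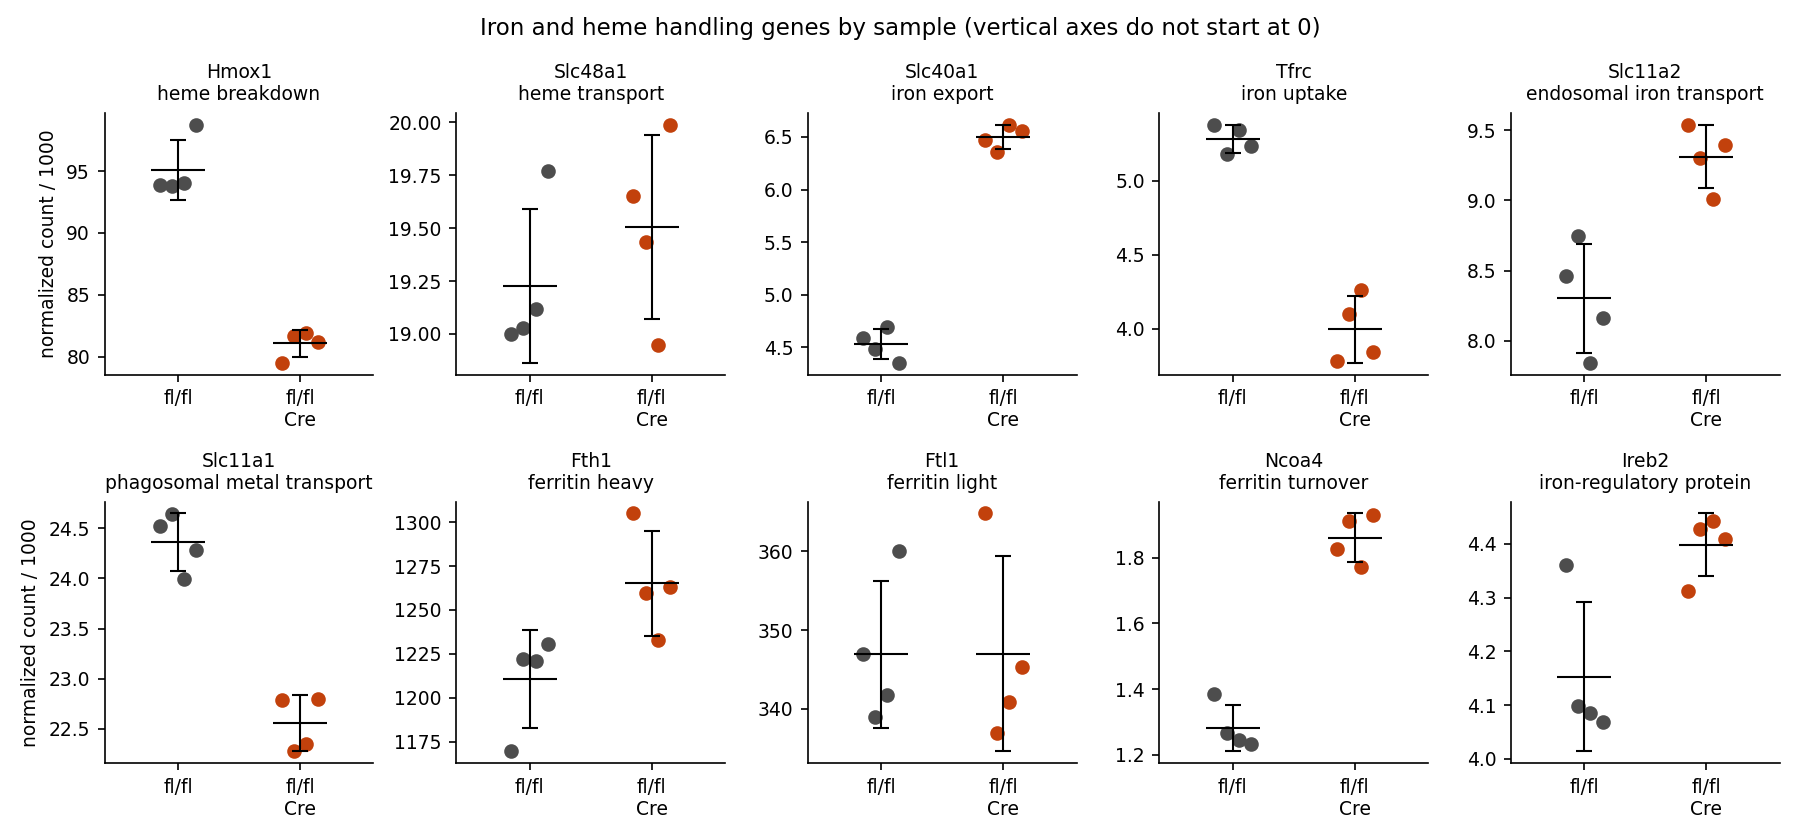
Normalized counts divided by 1000 (vertical axes, which do not start at 0) of the 10 iron and heme handling genes in each sample of *Phgdh* fl/fl TEMs (grey points) and *Phgdh* fl/fl *Cx3cr1*-Cre TEMs (orange points). Horizontal lines are means and bars are the SD of 4 samples. *Slc40a1* and *Ncoa4* stand higher and *Hmox1*, *Tfrc* and *Slc11a1* lower with the Cre in all samples, and *Ftl1*, *Slc48a1* and *Ireb2* overlap.

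*Hmox1* (ENSMUSG00000005413, chromosome 8 from 75093621 to 75100589) encodes heme oxygenase 1, the inducible enzyme that splits heme into biliverdin, carbon monoxide and iron. Its normalized counts were 93880, 93774, 94013 and 98737 in *Phgdh* fl/fl TEMs. In Cre TEMs they were 79495, 81688, 81882 and 81205. All samples with the Cre lay below all controls, and the fourth control stood above the other three. The mean fell by 14.8%, from 95101 ± 2426 to 81068 ± 1086 (SD, n = 4 each), for a log2 fold change of -0.23 ± 0.02 (SE, limma adjusted p = 8.05e-08). With each sample left out in turn it stayed between -0.24 and -0.21. These are RNA amounts from whole cultures, in which fewer expressing cells and less RNA per cell cannot be told apart.

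*Slc48a1* (ENSMUSG00000081534, chromosome 15 from 97778520 to 97792692) encodes HRG1, which carries heme out of the phagolysosome into the cytosol, where heme oxygenase acts. It had 18998, 19028, 19117 and 19770 normalized counts in the controls and 19654, 19433, 18949 and 19988 with the Cre. The groups overlapped, and the lowest sample of all was one with the Cre. Its log2 fold change of 0.02 had a 95% interval of -0.03 to 0.07 and was not called (limma adjusted p = 0.496). After quantile normalization it was 0.07 and was called (limma adjusted p = 0.0107). The interval did not reach the value of *Hmox1*, the enzyme of the same route, and the difference between the genes was not tested.

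The exporter and the importer of iron moved in opposite directions. *Slc40a1* (ENSMUSG00000025993, chromosome 1 from 45908068 to 45926523) encodes ferroportin, through which macrophages release iron. It had 4591, 4486, 4695 and 4352 normalized counts in the controls and 6471, 6359, 6615 and 6555 with the Cre. The lowest sample with the Cre was well above the highest control. The mean rose 1.435-fold, from 4531 ± 147 to 6500 ± 111 (SD, n = 4 each), with a log2 fold change of 0.52 ± 0.03 (SE, limma adjusted p = 2.18e-12). Its absolute log2 fold change was larger than that of 93.2% of tested genes.

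*Tfrc* (ENSMUSG00000022797, chromosome 16 from 32608920 to 32632794) encodes transferrin receptor 1, the receptor that brings iron-loaded transferrin into the cell. Controls had 5375, 5177, 5343 and 5230 normalized counts, and samples with the Cre had 3782, 4102, 4265 and 3841. The controls lay close together, the samples with the Cre were spread more widely, and all of the latter were lower. From 5281 ± 93.3 to 3997 ± 226 (SD, n = 4 each) the mean fell by 24.3%, a log2 fold change of -0.40 ± 0.03 (SE, limma adjusted p = 2.94e-09). This is the mRNA that holds the 4 matches printed above in its 3′ UTR.

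Within each sample the level of *Slc40a1* per length of exon was set beside that of *Tfrc*, a ratio chosen after the values were seen and therefore given without a test. It was 0.587, 0.595, 0.604 and 0.572 in *Phgdh* fl/fl TEMs. In Cre TEMs it was 1.18, 1.07, 1.07 and 1.17. The lengths were 9000 bases for *Slc40a1* and 6185 for *Tfrc*, summed over all annotated exons. By them the receptor transcript was the more abundant in all controls and the exporter transcript in all samples with the Cre. The mRNAs present can be shorter, so which transcript was the more abundant is not settled. The 1.9-fold shift of the mean does not depend on the lengths.

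*Slc11a2* (ENSMUSG00000023030, chromosome 15 from 100387898 to 100425072) encodes DMT1, which moves iron from the endosome into the cytosol after transferrin has been taken up. Its normalized counts were 8462, 8746, 7845 and 8161 in the controls and 9537, 9300, 9010 and 9397 with the Cre. All samples with the Cre were higher, while the nearest values of the groups lay close to each other. The mean rose 1.121-fold, from 8303 ± 388 to 9311 ± 223 (SD, n = 4 each), with a log2 fold change of 0.17 ± 0.03 (SE, limma adjusted p = 9.22e-05). The receptor and the transporter of the same endosomal route thus differed in direction.

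*Slc11a1* (ENSMUSG00000026177, chromosome 1 from 74375195 to 74386062) encodes NRAMP1, a relative of DMT1 that pumps metal ions out of the phagosome of macrophages. C57BL/6 mice are known to carry an allele of *Slc11a1* whose protein does not function, so that its transcript does not stand for NRAMP1 activity in these cells. Controls had 24519, 24643, 23993 and 24285 normalized counts, and samples with the Cre had 22788, 22282, 22351 and 22803. The spread within each genotype was small and the groups were apart. The mean fell by 7.4%, a log2 fold change of -0.11 ± 0.02 (SE, limma adjusted p = 1.65e-04). After quantile normalization the value was -0.04 and was no longer called (limma adjusted p = 0.145).

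**Figure D2:**
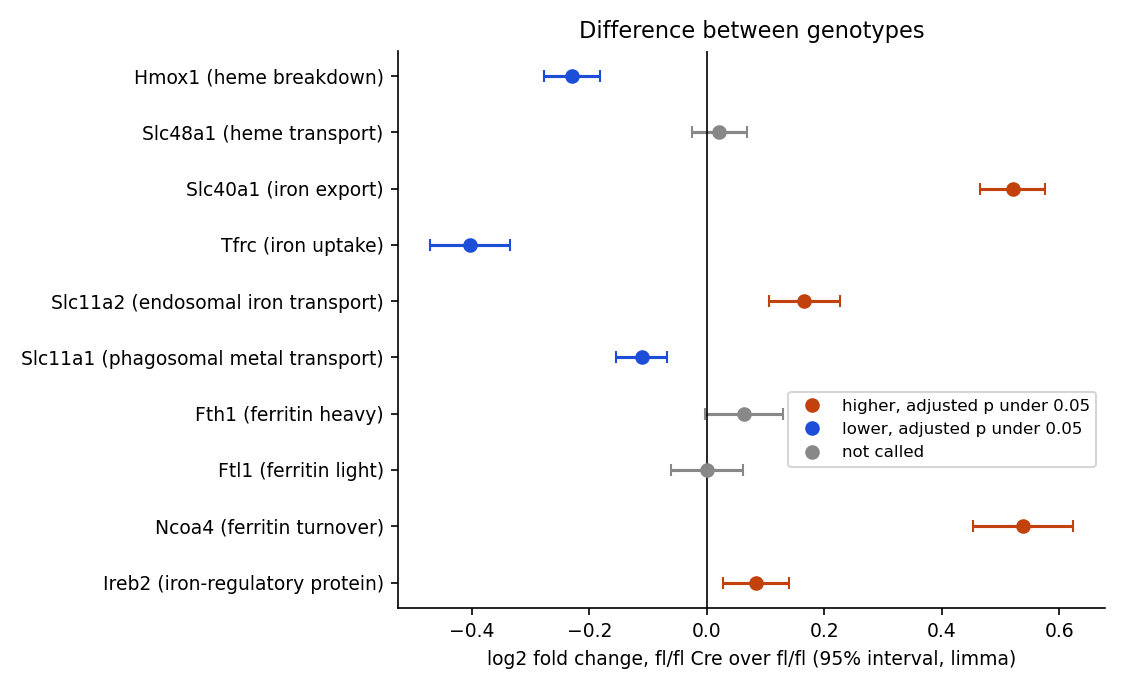
Log2 fold change of *Phgdh* fl/fl *Cx3cr1*-Cre over *Phgdh* fl/fl TEMs (horizontal axis) for each gene, with the 95% interval from limma as bars. Orange marks genes called higher, blue genes called lower and grey genes not called. *Slc40a1* at 0.52 and *Ncoa4* at 0.54 lie farthest to the right and *Tfrc* at -0.40 farthest to the left, and the intervals of *Slc48a1*, *Fth1* and *Ftl1* include 0.

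The ferritin transcripts were by far the most abundant of the 10, and neither was called. *Fth1* (ENSMUSG00000024661, chromosome 19 from 9980598 to 9985098) encodes the heavy chain of ferritin, which oxidizes iron for storage. It had more reads than any other gene of the table, between 2.70% and 3.03% of all reads of a sample. Its normalized counts were 1169520, 1222031, 1220686 and 1230874 in the controls and 1304964, 1259854, 1232628 and 1263030 with the Cre. The groups did not overlap, but the highest control and the lowest sample with the Cre were almost level.

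The means of *Fth1* were 1210778 ± 27874 and 1265119 ± 29863 (SD, n = 4 each), a ratio of 1.045. The log2 fold change of 0.06 had a 95% interval of -0.003 to 0.13 and was not called (limma adjusted p = 0.119). The call depended on the method. Count models on the recovered reads called it, with an adjusted p of 0.0174 in DESeq2 and 0.0175 in edgeR, and so did limma after scaling to total reads, with an adjusted p of 0.0492. The exact two-sided permutation test of 4 samples against 4 gave p = 0.0286, which is the lowest value open to this design.

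*Ftl1* (ENSMUSG00000050708, chromosome 7 from 45457944 to 45459884) encodes the light chain of ferritin, which helps iron to settle into the mineral core. Controls had 346900, 338964, 341739 and 360016 normalized counts, and samples with the Cre had 364809, 336928, 340871 and 345289. The groups covered the same range. Their means were 346905 ± 9339 and 346974 ± 12371 (SD, n = 4 each), and the 95% interval of the log2 fold change ran from -0.06 to 0.06. The table also has 5 rows for ferritin pseudogenes. Of these 1 lay below the filter, the 4 tested had limma adjusted p-values of 0.375 or more, and the most that any of them held in a sample was 182 reads, but reads shared between a ferritin gene and its copies could have been dropped or misplaced in counting.

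*Fth1* and *Ftl1* together took 3.51% to 3.67% of the reads of the controls and 3.67% to 3.88% of those with the Cre. Both chains build 1 shell, and the ratio of *Fth1* to *Ftl1* per length was taken within each sample after the values were seen. It was 1.30, 1.39, 1.38 and 1.32 in the controls and 1.38, 1.44, 1.40 and 1.41 with the Cre. The groups overlapped. As the ratio was chosen from the same values, no conclusion is drawn from its exact two-sided permutation test (p = 0.0571).

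*Ncoa4* (ENSMUSG00000056234, chromosome 14 from 32159865 to 32179855) encodes the receptor that takes ferritin to the lysosome, where its iron is set free. It had 1385, 1266, 1244 and 1231 normalized counts in the controls and 1826, 1913, 1773 and 1931 with the Cre. All samples with the Cre were far above the controls. The mean rose 1.452-fold, from 1281 ± 70.7 to 1861 ± 74.2 (SD, n = 4 each), with a log2 fold change of 0.54 ± 0.04 (SE, limma adjusted p = 1.05e-09). This was the largest absolute log2 fold change of the 10 genes, above that of 93.7% of tested genes, in the gene with the lowest level of the 10. Of its cargo transcripts, *Ftl1* was not called. *Fth1* was higher in all samples with the Cre, and its call depended on the method. The difference between *Ncoa4* and the ferritin genes was not tested.

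*Ireb2* (ENSMUSG00000032293, chromosome 9 from 54863789 to 54912530) encodes iron-regulatory protein 2, one of the proteins that bind the hairpins. Its normalized counts were 4360, 4098, 4085 and 4069 in the controls and 4313, 4428, 4443 and 4408 with the Cre. The first control stood above the other three and above 1 sample with the Cre, so that the groups overlapped. The log2 fold change of 0.08 ± 0.03 (SE) was called (limma adjusted p = 0.0177). The call was lost without the third control (limma adjusted p = 0.0519), without the fourth control (limma adjusted p = 0.0567) and in limma without a mean-variance trend (adjusted p = 0.0605). IRP2 is known to be regulated mainly by breakdown of the protein, which was not measured here.

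Levels were compared between genes per length, as FPKM computed from the recovered reads and the summed length of all annotated exons. This length covers exons of each annotated transcript and can exceed that of the mRNA present, which lowers the FPKM. In *Phgdh* fl/fl TEMs the order was *Fth1* (8054 ± 177), *Ftl1* (5974 ± 158), *Hmox1* (1253 ± 31.1), *Slc48a1* (161 ± 2.92), *Slc11a1* (152 ± 2.02), *Slc11a2* (30.2 ± 1.45), *Tfrc* (19.7 ± 0.348), *Slc40a1* (11.6 ± 0.374), *Ireb2* (10.1 ± 0.350) and *Ncoa4* (3.16 ± 0.179), each in FPKM with the SD of 4 samples. *Fth1*, *Ftl1* and *Hmox1* ranked 3, 4 and 22 among the genes of the table. The genes of storage and heme breakdown thus stood far above those of transport across membranes, and no neighbours in this order were within each other's SD. With the Cre the FPKM of *Slc40a1* was 16.8 ± 0.283 and that of *Tfrc* 15.1 ± 0.885, so that both changed places, and the order of the others was the same. The exchange of *Slc40a1* and *Tfrc* rests on the exon lengths used.

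**Figure D3:**
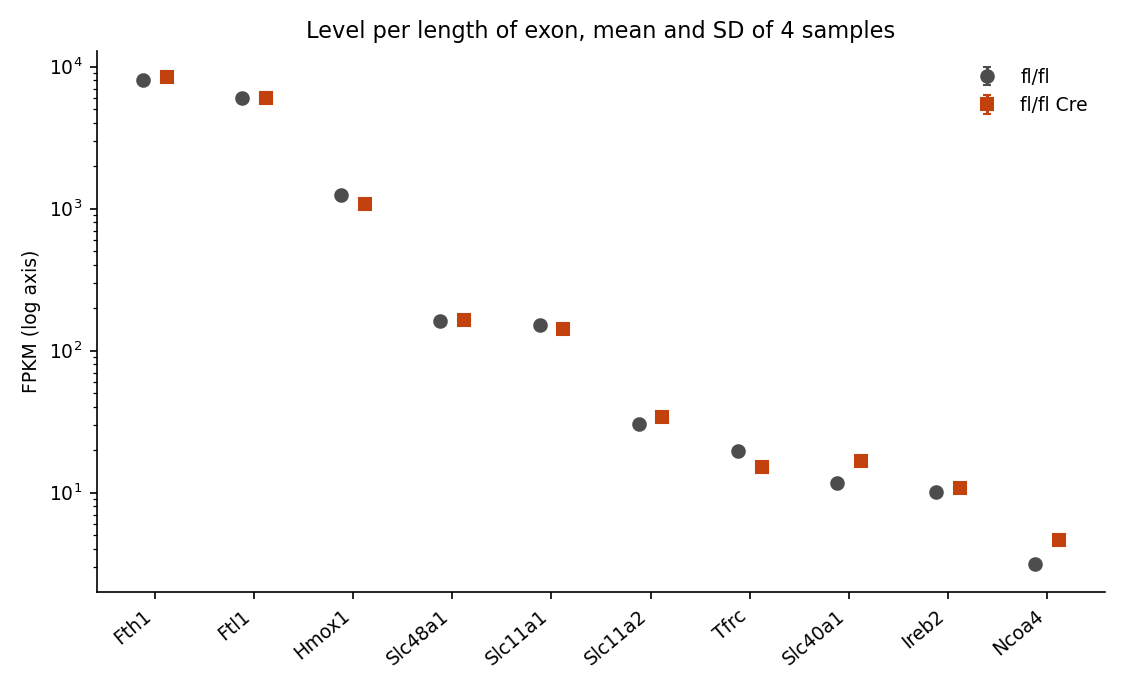
FPKM (vertical axis, logarithmic) of the 10 genes in *Phgdh* fl/fl TEMs (grey circles) and *Phgdh* fl/fl *Cx3cr1*-Cre TEMs (orange squares), as mean and SD of 4 samples, with most SD bars smaller than the symbols. The levels span from 8054 for *Fth1* to 3.16 for *Ncoa4* in the controls, and only *Tfrc* and *Slc40a1* exchange their order between the genotypes.

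Other genes of iron and heme biology were taken as 6 lists, with 83 tested genes in all. Of these, 24 were higher and 14 were lower in Cre TEMs, and their median log2 fold change was -0.01. Of all tested genes 41.0% were called, and 48.6% of those with a mean of at least 100 normalized counts, so that the 6 lists together were near the background. The number lower was 9 after scaling to total reads and 9 in limma without a mean-variance trend. Of 8 genes of heme synthesis, 2 were higher and none was lower, and log2 fold changes lay between -0.16 and 0.16. *Alas1*, the enzyme of the first step outside the red cell lineage, had a log2 fold change of 0.08 (limma adjusted p = 0.00599).

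Among 13 genes of heme breakdown and transport, 3 were higher and 4 were lower. Of all tested genes 20.8% were higher and 20.3% lower, and 48.6% of those with a mean of at least 100 normalized counts were called. Of the 4 lower genes, 3 act in heme breakdown, a grouping made after the values were seen. These 3 had means above 1000 normalized counts, a level at which 56.9% of tested genes were called. *Hmox2*, the constitutive heme oxygenase, had 5948, 6388, 6382 and 6501 normalized counts in the controls and 5559, 5671, 5527 and 5467 with the Cre, a log2 fold change of -0.18 (limma adjusted p = 1.65e-05). *Blvra*, a biliverdin reductase that acts on the product of heme oxygenase, had -0.10 (limma adjusted p = 0.00343). *Blvrb*, the other biliverdin reductase, had -0.07 (limma adjusted p = 0.0096) and was named after its value was seen. Of the transporters, *Flvcr1*, a heme exporter of the plasma membrane, rose from 4644 ± 12.8 to 5161 ± 55.1 (SD, n = 4 each), and *Abcg2*, an efflux pump that carries porphyrins, fell from 469 ± 42.7 to 414 ± 26.8 (limma adjusted p = 0.039). *Pgrmc1*, a heme-binding membrane protein, had a log2 fold change of 0.12.

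Of 19 genes of iron uptake, reduction and export 12 were tested, of which 4 were higher and 2 were lower, with a median log2 fold change of 0.07. The shares over all tested genes were 20.8% higher and 20.3% lower. *Lcn2*, lipocalin 2, which binds iron-loaded siderophores, had 208, 203, 214 and 240 normalized counts in the controls and 403, 380, 391 and 371 with the Cre. It rose 1.784-fold, a log2 fold change of 0.83 (limma adjusted p = 6.82e-09), the largest in the 6 lists. *Slc25a37*, mitoferrin 1, which brings iron into mitochondria, rose from 4065 ± 168 to 4974 ± 141 (SD, n = 4 each). *Cp*, ceruloplasmin, the copper enzyme that oxidizes iron leaving through ferroportin, rose 1.124-fold, and *Pcbp1*, a chaperone that hands iron to ferritin, had a log2 fold change of -0.13 (limma adjusted p = 4.32e-04).

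Of the 12 regulators 6 were called, near the background of 41.0%, and these 6 were higher, against 20.8% of tested genes. *Nfe2l2* encodes NRF2, an activator of *Hmox1* and of the ferritin genes, and it had 13766, 14084, 14572 and 14063 normalized counts in the controls and 16725, 16126, 16150 and 16857 with the Cre, a log2 fold change of 0.22 (limma adjusted p = 1.73e-07). *Herc2*, a ubiquitin ligase with NCOA4 among its substrates, had 0.38, and *Hif1a*, the oxygen-regulated transcription factor, had 0.14. *Bach1*, the repressor of *Hmox1*, had 0.07 with overlapping samples (limma adjusted p = 0.0483) and was named after its value was seen. *Aco1*, which encodes iron-regulatory protein 1, had 0.02 and was not called (limma adjusted p = 0.53), and it too was named after its value was seen.

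Of 12 targets of NRF2 and BACH1, 8 were higher and 1 was lower, with a median log2 fold change of 0.12. Among all tested genes 20.8% were higher and 20.3% lower, and genes of high level were called more often (56.9% at a mean of at least 1000 normalized counts and 71.0% at 10000). *Slc7a11*, the cystine importer, rose from 5587 ± 342 to 8747 ± 104 (SD, n = 4 each), for a log2 fold change of 0.65 (limma adjusted p = 1.58e-12). *Srxn1*, sulfiredoxin, had 0.25 and *Osgin1*, an oxidative stress response gene, had 0.21. *Hmox1*, a target of the same pair of factors, differed from these in direction, and the 1 lower gene, *Gclm* of glutathione synthesis, had -0.08 with overlapping samples and was named after its value was seen. The core of the antioxidant response element, TGACNNNGC, was searched on both strands in 10 promoter windows of 300 bases that RefSeq (GRCm38.p6) gave for *Slc11a1*, *Ftl1*, *Ireb2*, *Ncoa4*, *Tfrc* and *Fth1*. The promoters of *Hmox1*, *Slc11a2*, *Slc40a1* and *Slc48a1* were not searched. The core was found in 1 of these 10 windows, of *Ncoa4*, near the share of 12.392% among 32851 windows of all genes. Sequence outside the windows was not searched, so that elements farther from the start could not be seen.

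Iron-sulfur cluster assembly had 1 higher and 7 lower genes among 26 tested, and its median log2 fold change was -0.10, the lowest of the 6 lists. Fewer of them were called than the 41.0% of all tested genes, of which 20.3% were lower. *Ciapin1*, an electron carrier of the cytosolic machinery, went down from 951 ± 12.5 to 813 ± 25.2 (SD, n = 4 each), for a log2 fold change of -0.23 (limma adjusted p = 1.08e-04). *Iba57*, which acts late in the mitochondrial pathway, had -0.19, and *Ciao2a*, a targeting factor of the cytosolic pathway, had -0.18. *Hscb*, the co-chaperone that moves clusters off their scaffold, had 0.17 and was the gene called higher.

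**Figure D4:**
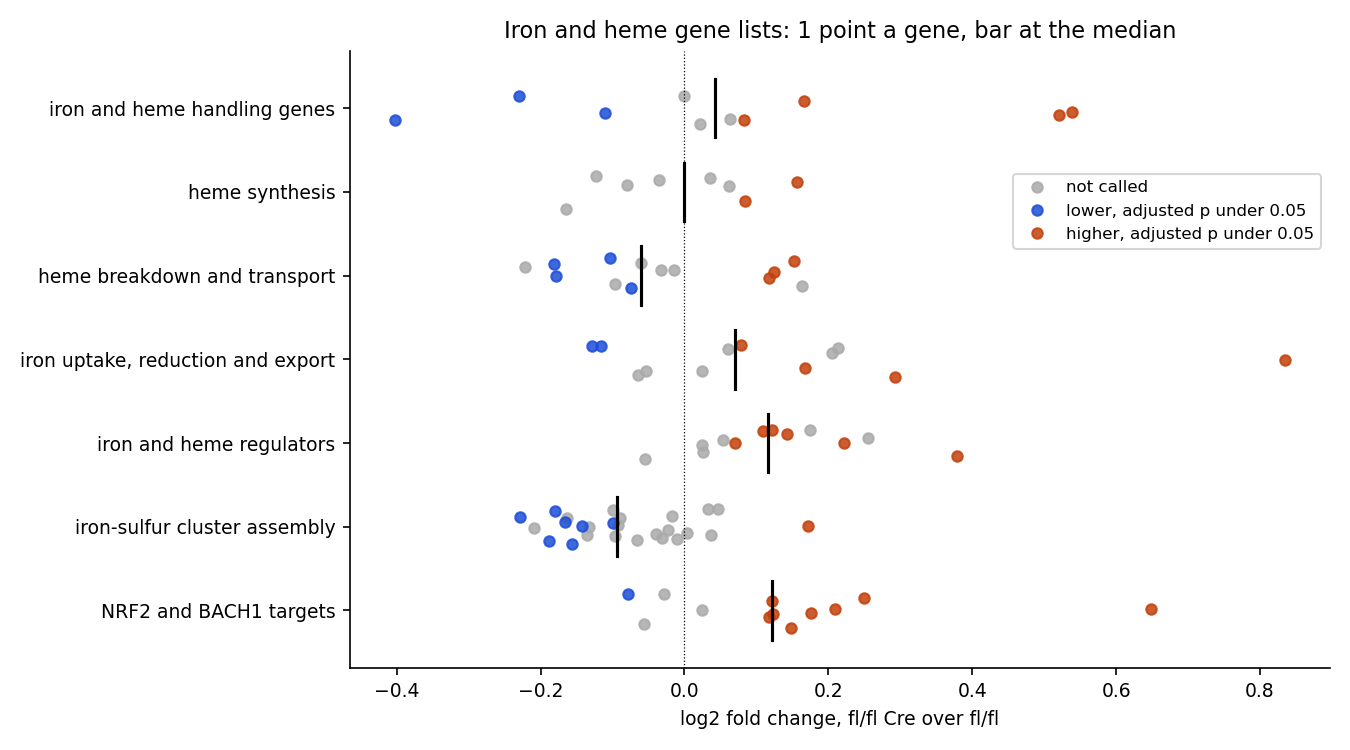
Log2 fold change of *Phgdh* fl/fl *Cx3cr1*-Cre over *Phgdh* fl/fl TEMs (horizontal axis) for the 10 iron and heme handling genes and the 6 lists, with 1 point a tested gene and a black bar at the median of each list. Orange and blue points are genes called higher and lower, and grey points were not called. The median is 0.12 for the regulators and for the targets of NRF2 and BACH1 and -0.10 for iron-sulfur cluster assembly, and *Lcn2* at 0.83 is the point farthest to the right.

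The label of the cells was checked against marker genes. All 8 macrophage markers had reads, and their summed normalized counts were 1030176 to 1121134 in the controls and 1008585 to 1085172 with the Cre. Of these markers 4 were not called and 4 were lower, where 20.3% of all tested genes were lower. All of them but *Mertk* had a mean of at least 10000 normalized counts, a level at which 71.0% of tested genes were called. The lower markers had log2 fold changes of -0.40 for *Fcgr1*, -0.32 for *Cd14*, -0.19 for *Itgam* and -0.08 for *Adgre1*. These values move in the direction of *Hmox1* and *Tfrc*, and their part in the results was not tested. Red cell precursors are rich in *Tfrc* and heme enzymes, and of 9 erythroid markers *Klf1* alone had a row, with between 0 and 8.59 normalized counts in a sample. The other erythroid markers were not analysed here. The lymphocyte marker *Ms4a1* reached at most 4.13, and 3 of 6 fibroblast and mesothelial markers summed to between 19.7 and 43.8. The granulocyte marker *S100a8*, 1 of 9 with a row, had 467 to 575 in the controls and 576 to 631 with the Cre, a log2 fold change of 0.23 (limma adjusted p = 0.0044). *Lcn2*, which granulocytes also express, moved in the same direction, and the part of other cells in it was not tested.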

How the data were processed

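RNA was sequenced from 8 samples, 4 of each genotype. The submitters' processing notes name TopHat2, HTSeq 0.6, DESeq2 and mm10. The kit was directional, and the strand setting of the counting is not given in the sources used here. The authors deposited read counts divided by size factors for 18635 genes, a signal per gene that is not scaled to length although the table is titled FPKM. Columns of the authors' own comparison (log2 fold change, its error, a test score and p-values) were not used. Whole reads were recovered for 100.0% of 144353 values above 0 (tolerance 0.01), 38219563 to 47027420 a sample. Counting error was far below the spread between samples for *Fth1* and *Ftl1*, and as large as that spread for *Ireb2* in the samples with the Cre. Samples of 1 genotype differed by more than sampling noise (chi-square per gene 1.788 to 6.199) and were kept as separate replicates. The labels do not say which animals they came from, and no batch is given.

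The test was limma 3.58.1 (eBayes with trend, two-sided, R 4.3.3) on log2(normalized count + 1), for 13629 genes with a mean of at least 10, with Benjamini-Hochberg adjustment over all of them. Fold changes are on that scale, Cre over control. Exact permutation used 70 labelings (Python 3.11.15, numpy 2.4.6). On simulated counts with 200 changed genes among 13634, limma found 197 in the right direction and called 3 unchanged genes. Recovery was not tested for log2 fold changes as small as the -0.40 of *Tfrc* or the -0.23 of *Hmox1*. Nor was it tested for the smaller ones of *Slc11a2*, *Slc11a1* and *Ireb2*, the last at 0.08, or for list genes with changes of these sizes. Recovery with a share of called genes as high as the 41.0% of these data was not tested. Alternatives were quantile normalization, scaling to total reads, a filter at 100 or none, a pseudocount of 0.1, limma without trend or with a replicate block, 1 sample fewer, DESeq2 1.42.0 and edgeR 4.0.16 on the recovered reads. Exon lengths came from GENCODE M21 (18629 genes found).

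The 10 genes, the lists and the tests were chosen with earlier results of these data known. The genes named are these 10, *Phgdh*, *Cx3cr1*, the ferritin copies, the cell type markers and, from each list, up to 3 of the highest and 3 of the lowest fold changes that were called with genotypes that did not overlap. Others are marked as named after their values were seen.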

Additional observations from a re-analysis of the deposited data

Results flagged for a closer look

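A sample was marked where its gap to the nearest other sample of the genotype was above Dixon's 95% critical value for 4 samples. Of 74 groups checked 5 were marked, and chance marks about 1 in 20. The fourth *Phgdh* fl/fl sample had 98737 normalized counts of *Hmox1*, against 93774 to 94013 in the other controls, and 19770 of *Slc48a1*, against 18998 to 19117. The first *Phgdh* fl/fl sample had 1169520 of *Fth1*, against 1220686 to 1230874, and 4360 of *Ireb2*, against 4069 to 4098. The second *Phgdh* fl/fl sample had 3292 of *Pgrmc1*, against 3441 to 3460. All 5 marked values were from controls.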

How the results depend on the processing

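Over 17 alternatives to each value, the calls of *Slc40a1* (log2 fold change 0.50 to 0.54), *Ncoa4* (0.52 to 0.58), *Tfrc* (-0.44 to -0.38), *Hmox1* (-0.24 to -0.19) and *Slc11a2* (0.14 to 0.19) kept their direction and their side of the threshold. *Fth1* was called under 3 alternatives, and the calls of *Ireb2* and *Slc11a1* were lost under 3 and 1, with the values given above. *Ftl1*, at -0.000, changed sign without being called: 0.0373 after quantile normalization, 0.0151 after scaling to total reads, 0.0009 in DESeq2 and 0.0006 in edgeR, and between -0.0243 and 0.018 with a sample left out. Quantile normalization gave the most abundant gene the same value in all samples, so that *Fth1* had 0.0 there, and under it *Slc48a1* was called (0.0732, limma adjusted p = 0.0107). The number of other iron and heme genes called lower was 9 instead of 14 after scaling to total reads and 9 in limma without trend, and the cause was not tested. Scaling to total reads moved the share of higher genes among all called from 50.6% to 56.2%. With the replicate block, 2824 genes were higher and 2773 lower, against 2830 and 2764 without it, and no call of the 10 genes changed. Deviations of samples with the same number had correlations of 0.063 to 0.126, against -0.124 to 0.135 for different numbers, and 3 of 4 controls correlated best with their own number. As a pairing is not in the labels and not all 4 values were above 0.1, the samples were not taken as pairs. The design cannot give an exact p below 0.0286.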
